A study of Homo sapiens with 6 samples.

Results

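Heat shock proteins and co-chaperones are the genes of the cytosolic and mitochondrial protein folding machinery that heat shock factor 1 (HSF1) drives. The group described here holds 10 genes chosen by name, with earlier results of these data known. Each was found by its symbol among the 60662 genes with a value. They are HSPA1A, HSPA1B and HSPA8 of the HSP70 family, HSPH1 of the HSP110 family, the co-chaperones DNAJB1 and BAG3, the small heat shock protein HSPB1, HSP90AA1 and HSP90AB1 of the HSP90 family, and the mitochondrial chaperonin HSPD1. Poly-A RNA was sequenced from HCT116 cells, an established human colorectal cancer line, in 3 shCtrl libraries and 3 GMDS-AS1 shRNA2 libraries (GMDS-AS1 KD). Both lines were infected with lentivirus and carried a stable short hairpin RNA, in shCtrl a nontarget one and in KD cells one against GMDS-AS1, a long non-coding RNA. Each condition was 1 stable line as far as the labels say, and a difference between the lines cannot be told apart from the effect of the KD.

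HSP70 proteins bind exposed hydrophobic stretches of unfolded proteins and release them in a cycle driven by ATP. J-proteins such as DNAJB1 bring the client and trigger ATP hydrolysis, and nucleotide exchange factors such as HSPH1 and BAG3 open the cycle again. HSP90 takes over clients that are close to their native state, among them many kinases and steroid receptors. In unstressed cells HSF1 is held inactive by chaperones. When unfolded proteins accumulate it forms trimers that bind heat shock elements, inverted repeats of the unit GAA, in the promoters of these genes.

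The promoters are shown first because the heat shock element is the sequence that HSF1 binds. Promoter windows from RefSeq (GRCh38.p14), 250 bases before and 50 bases after an annotated start, were available for all 10 genes, which had 16 windows between them. An element of 2 units was searched as GAANNTTC or TTCNNGAA and an element of 3 units as GAANNTTCNNGAA or TTCNNGAANNTTC. Both strands were covered, and each match of 3 units also holds 2 overlapping matches of 2 units. Upstream stretches are printed 5′ to 3′ on the strand of the gene, with the matches in capitals. The stretches of HSPA8, HSP90AA1 and HSPD1 are limited to 30 bases because longer annotated transcripts have exons there. Those of HSP90AB1 and DNAJB1 lie upstream of an inner start, within the annotated span of the gene but in no exon. The DNAJB1 stretch also lies within the span of TECR.
HSPA1A, chr6:31815378-31815457, plus strand: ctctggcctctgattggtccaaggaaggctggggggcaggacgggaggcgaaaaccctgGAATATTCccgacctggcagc
HSPA1B, chr6:31827573-31827652, plus strand: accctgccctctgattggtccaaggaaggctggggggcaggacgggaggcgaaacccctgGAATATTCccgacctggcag
HSPA8, chr11:123062169-123062198, minus strand: gggccccTTCTGGAAGGTTCtaagataggg
HSPB1, chr7:76302473-76302532, plus strand: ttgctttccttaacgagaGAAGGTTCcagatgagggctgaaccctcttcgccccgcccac
DNAJB1, chr19:14518423-14518487, minus strand: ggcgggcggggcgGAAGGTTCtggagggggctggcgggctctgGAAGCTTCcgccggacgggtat
HSP90AA1, chr14:102087104-102087133, minus strand: cTTCCGGAAGGTTCgggaggcTTCTGGAAa
HSP90AB1, chr6:44247753-44247862, plus strand: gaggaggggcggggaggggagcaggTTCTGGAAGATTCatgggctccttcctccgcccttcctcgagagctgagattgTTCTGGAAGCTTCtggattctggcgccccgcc
HSPD1, chr2:197500061-197500090, minus strand: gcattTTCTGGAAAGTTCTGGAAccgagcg

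An element of 2 units was present in a window of 8 of the 10 genes, and an element of 3 units in 4 of them, HSPA8, HSP90AA1, HSP90AB1 and HSPD1. Every unit had to match exactly, so a further unit with a changed base was not counted. Over 27305 genes with a window, 16.18% held 2 units and 0.61% held 3 units. Over the 35116 single windows these shares were 13.49% and 0.49%. Of the 16 windows of the 10 genes, 9 held 2 units and 4 held 3 units. The 10 genes were chosen as genes that HSF1 drives, so shares above those of all genes are no independent result. HSPD1 carried 4 units in a row, which 0.04% of the genes did. HSPA8 held a second match of 3 units, GAAAGTTCCAGAA, from position -230 relative to the annotated start, beside the one shown at position -55. No match was in the windows of BAG3 and HSPH1, which says only that these letters are not in these windows. The windows at other starts of HSP90AA1, HSP90AB1 and HSPD1 held no match either. Of the other windows of DNAJB1, chr19:14529222-14529521 held none and chr19:14517888-14518187 held a match of 2 units. The upstream parts of HSPA1A and HSPA1B were identical at 235 of 249 aligned bases (94.4%). A match is a run of letters, and binding of HSF1 was not measured here.

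TPM corrects for the length of a transcript and for the library total, so levels of different genes can be set side by side, but no read total survives in it and the depth of the libraries is unknown. The test covered 16901 genes that reached 0.5 TPM in 3 or more libraries. After scaling between libraries with trimmed means of log ratios (TMM), log2(scaled TPM + 1) was compared with limma. Fold changes are on this scale, and p-values are adjusted by Benjamini-Hochberg over all genes tested. The scaling raised the KD libraries against the shCtrl libraries, since the log2 factors by which TPM were divided differed by -0.25. With TPM as deposited, the median log2 fold change of all genes moved from -0.002 to -0.195, so values from TPM as deposited are given beside those from the scaled libraries. The targeted RNA, listed as GMDS-DT (ENSG00000250903), read 1.66, 2.21 and 1.34 TPM under shCtrl against 0.88, 0.91 and 0.79 TPM under KD. Its log2 fold change was -0.41 (SE 0.14, limma adjusted p = 0.0407), and the adjusted p was 0.0714 to 0.117 in 5 of the 6 fits that left out 1 library, all but the one without shCtrl replicate 3. Of the epithelial markers, EPCAM was at 141.04 TPM or more in all libraries and VIL1 at 0.41 TPM or less. The 7 epithelial markers summed to 9171 to 9621 TPM in shCtrl and 3445 to 3547 TPM in KD libraries, 4 immune markers to at most 1.92 TPM with PTPRC at 0, 3 endothelial markers to at most 0.94 TPM, and 5 fibroblast markers to 13.4 to 15.0 TPM in shCtrl and 10.2 to 11.2 TPM in KD libraries. The epithelial sum moved with the groups through the keratins KRT8, KRT18 and KRT19, while EPCAM, CDH1 and CDX2 overlapped between the groups. The part of the keratins in the results below was not tested.

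Chaperone transcripts were more abundant in GMDS-AS1 KD cells. The 9 of 10 genes that passed the filter on low values were all called higher at an adjusted p under 0.05, and none was lower. Of all genes tested, 54.3% were called, 28.5% higher and 25.9% lower. The 10 genes were chosen with earlier results of these data known, so counts above these shares are no independent result. Of the 9 genes, 4 were at least 2-fold higher, HSPA1B, HSPA8, HSPB1 and DNAJB1, where 2.93% of all genes were. By the ratio of the mean scaled levels BAG3 also reached 2.02-fold. With TPM as deposited DNAJB1 was under 2-fold, at a log2 fold change of 0.92. The share of all genes at least 2-fold higher with TPM as deposited was not counted. In each of the 9 genes the scaled KD libraries all lay above the shCtrl libraries, which 31.7% of all genes tested did. Log2 fold changes ran from 0.36 for HSP90AB1 to 2.67 for HSPA1B, with a median of 0.99 over the 9 genes. The 9 genes were again called higher with TPM as deposited, with a median of 0.75, while 16.3% of all genes were called higher and 40.3% lower. In bulk libraries a change in every cell and a change in the share of cells that express a gene cannot be told apart, and likewise fewer cells of a type and less RNA per cell.

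**Figure D1:**
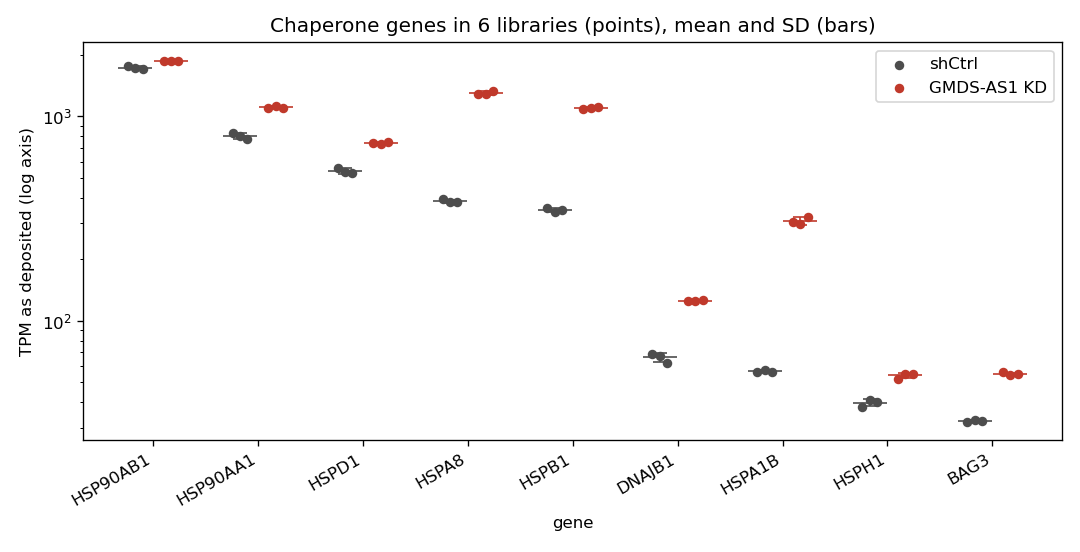
TPM as deposited (log axis) of 9 chaperone genes in the 3 shCtrl and 3 GMDS-AS1 KD libraries, ordered by their shCtrl mean. Points are libraries and bars the mean and SD (n = 3 per group). For each gene the KD points lie above the shCtrl points. The share of all genes that do so was counted only for scaled TPM. As a ratio, on the log axis, the gap is narrowest for HSP90AB1 (1762.53 against 1857.12 TPM) and widest for HSPA1B.

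HSPA1B, a stress-inducible HSP70 gene, had the largest fold change of the group. HSPA1A (ENSG00000204389, chr6:31815464-31817946) and HSPA1B (ENSG00000204388, chr6:31827735-31830255) encode the same HSP70 protein and lie on the plus strand with 9788 bases between them. HSPA1B was at 56.26, 57.34 and 56.2 TPM in shCtrl cells and at 305.52, 296.38 and 322.96 TPM in KD cells. The lowest KD library was thus above the highest shCtrl library, and the shCtrl libraries lay close together. The scaled level was 6.46-fold higher, with a log2 fold change of 2.67 (SE 0.03, limma adjusted p = 7.22e-08), or 2.42 with TPM as deposited. It was the 8th of the 4810 genes called higher when these are ordered by fold change.

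HSPA1A was listed at 0, 0.35 and 0 TPM in shCtrl cells and at 0 in the 3 KD libraries, so it failed the filter and was not tested. Of the 150-base windows of the HSPA1A transcript, the length of 1 read, 67.1% also occur in HSPA1B or AL671762.1, and 70.0% of those of HSPA1B occur in HSPA1A or AL671762.1. The division of reads between the pair is therefore uncertain, and the values listed for HSPA1B may hold reads of HSPA1A. The pair summed to 56.26, 57.69 and 56.2 TPM with shCtrl (mean 56.7 ± 0.843, SD, n = 3) and to 308.3 ± 13.5 TPM (SD, n = 3) with KD, a log2 difference of 2.67 (SE 0.03, limma adjusted p = 7.22e-08). With HSPA1A at or near 0 TPM the sum is nearly HSPA1B alone, so it is no separate result. The neighbouring HSPA1L, which is known for its expression in testis, was at 0.34 TPM or less. HSPA6, an HSP70 gene that is silent until severe stress, was at 0.08 TPM or less in every library and was not tested.

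HSPA8 (ENSG00000109971, chr11:123057489-123063230, minus strand) encodes HSC70, the HSP70 protein that most cells make without stress and that also uncoats clathrin vesicles. It was at 391.89, 379.52 and 382.24 TPM in shCtrl cells and at 1281.69, 1283.42 and 1333.86 TPM in KD cells. No library of one group came near the other group. The log2 fold change was 2.00 (SE 0.02, limma adjusted p = 7.22e-08), a 4.01-fold rise of the scaled level. From TPM as deposited it was 1.75 on the log2 scale. The 17 HSPA8 pseudogenes in the files summed to at most 0.94 TPM in any library.

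The cofactors of HSP70 also rose, with smaller fold changes than HSPA1B and HSPA8. DNAJB1 (ENSG00000132002, chr19:14514770-14529770, minus strand), the main J-protein induced by heat, was at 68.92, 67.46 and 62.1 TPM in shCtrl cells and at 125.09, 124.85 and 126.65 TPM in KD cells. DNAJB1 had a log2 fold change of 1.16 (SE 0.04, limma adjusted p = 1.7e-06), or 0.92 with TPM as deposited, and its KD libraries lay within 2 TPM of each other. BAG3 (ENSG00000151929, chr10:119651370-119677819, plus strand) links HSP70 to small heat shock proteins and to the autophagy of aggregated proteins. It was at 31.99, 32.78 and 32.55 TPM in shCtrl cells and at 55.91, 54.62 and 54.8 TPM in KD cells, without overlap. Its log2 fold change was 0.99 (SE 0.03, limma adjusted p = 1.94e-06), or 0.75 with TPM as deposited. HSPH1 (ENSG00000120694, chr13:31134974-31162388, minus strand), the HSP110 protein that exchanges nucleotide on HSP70, was at 38.07, 41.16 and 39.89 TPM in shCtrl cells and at 52.13, 55.08 and 55.19 TPM in KD cells. HSPH1 had a log2 fold change of 0.68 (SE 0.05, limma adjusted p = 2.88e-05), or 0.44 with TPM as deposited, and it had the lowest KD mean of the 9 genes.

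HSPB1 (ENSG00000106211, chr7:76302544-76304295, plus strand) encodes HSP27, a small heat shock protein that holds unfolded proteins without ATP and binds actin filaments. It was at 356.99, 338.47 and 347.17 TPM in shCtrl cells and at 1085.84, 1094.31 and 1107.18 TPM in KD cells. The rise of 748.2 TPM was many times the spread within either group, with SDs of 9.27 and 10.7 TPM (n = 3). The log2 fold change was 1.90 (SE 0.03, limma adjusted p = 9.55e-08), or 1.65 with TPM as deposited. The HSPB1 pseudogenes, 2 in number, reached at most 1.08 TPM together.

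The HSP90 genes were the most abundant of the group in shCtrl cells. HSP90AB1 (ENSG00000096384, chr6:44246166-44253888, plus strand), the constitutive HSP90, was at 1762.53, 1719.69 and 1694.15 TPM in shCtrl cells and at 1866.92, 1869.5 and 1857.12 TPM in KD cells. It had the smallest change, a log2 fold change of 0.36 (SE 0.02, limma adjusted p = 1.71e-05), and with TPM as deposited this was 0.11 (adjusted p = 0.00386). HSP90AA1 (ENSG00000080824, chr14:102080738-102139699, minus strand), the stress-inducible HSP90, was at 822.81, 800.42 and 777.22 TPM in shCtrl cells and at 1092.38, 1116.89 and 1100.05 TPM in KD cells. HSP90AA1 thus had a log2 fold change of 0.71 (SE 0.03, limma adjusted p = 2.34e-06), or 0.46 with TPM as deposited (adjusted p = 1.52e-05). Neither gene overlapped between the groups.

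HSPD1 (ENSG00000144381, chr2:197486581-197516737, minus strand) encodes HSP60, the barrel in which proteins fold in the mitochondrial matrix. It was at 559.1, 531.63 and 527.81 TPM in shCtrl cells and at 738.77, 731.23 and 750.24 TPM in KD cells. The log2 fold change was 0.70 (SE 0.03, limma adjusted p = 2.25e-06), or 0.46 with TPM as deposited. The 18 HSPD1 pseudogenes summed to at most 0.98 TPM, and 1 window of 150 bases of the transcript occurred in a pseudogene. HSPE1, which encodes HSP10, the lid of the HSP60 barrel, lies on the plus strand (chr2:197499994-197503457) within the annotated span of HSPD1, which is on the other strand, and the HSPD1 element shown above lies within exons annotated for both genes. HSPE1 was at 408.18, 421.53 and 438.83 TPM in shCtrl cells and at 890.8, 894.38 and 851.11 TPM in KD cells. HSPE1 rose 2.47-fold on the scaled level, with an SE of 0.04 on the log2 scale (limma adjusted p = 1.58e-06), and its log2 fold change with TPM as deposited was 1.05.

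**Figure D2:**
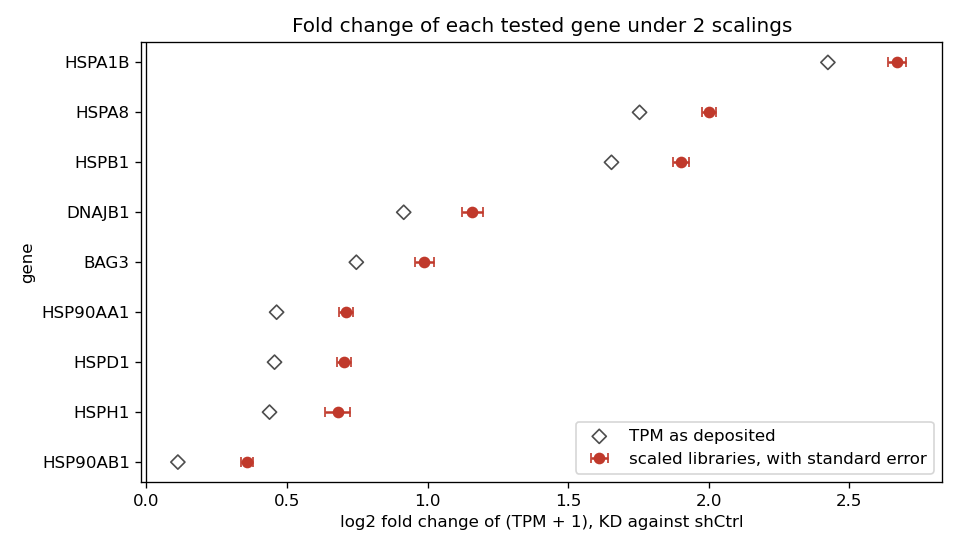
Log2 fold change of (TPM + 1), KD against shCtrl, for the 9 tested chaperone genes. Filled circles with the standard error are from scaled libraries and open diamonds from TPM as deposited, and the order runs from HSPA1B (2.67 and 2.42) down to HSP90AB1 (0.36 and 0.11) in both.

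The order of the levels differed between the groups. In shCtrl cells it ran HSP90AB1, HSP90AA1, HSPD1, HSPA8, HSPB1, DNAJB1, HSPA1B, HSPH1, BAG3 and HSPA1A, and no neighbours in this order overlapped over their 3 libraries. In KD cells HSPA8 was second after HSP90AB1, with means of 1299.7 and 1864.5 TPM. HSP90AA1 at 1103.1 ± 12.5 TPM and HSPB1 at 1095.8 ± 10.7 TPM (SD, n = 3) came next and overlapped. BAG3 at 55.1 ± 0.699 TPM and HSPH1 at 54.1 ± 1.74 TPM (SD, n = 3) also overlapped. The 10 genes together made up 3992 ± 87.0 TPM in shCtrl cells and 6646 ± 54.7 TPM in KD cells (SD, n = 3), or 0.403% and 0.669% of the summed TPM of a library. Of the added TPM, HSPA8 accounted for 34.5%, HSPB1 for 28.2%, HSP90AA1 for 11.4% and HSPA1B for 9.48%. The share of the group's TPM in the HSP90 genes was 63.3% ± 0.222 in shCtrl cells and 44.7% ± 0.510 in KD cells (SD, n = 3).

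Ratios within a library do not depend on the scaling between libraries. HSP90AA1 was at 0.467, 0.465 and 0.459 of the TPM of HSP90AB1 in shCtrl cells and at 0.585, 0.597 and 0.592 in KD cells, a log2 difference of 0.35. The sum of HSPA1A and HSPA1B was at 0.144, 0.152 and 0.147 of HSPA8 in shCtrl cells and at 0.238, 0.231 and 0.242 in KD cells, a log2 difference of 0.68. The share of inducible HSP70 relative to HSC70 was thus higher in each KD library, although HSPA8 gained more TPM. HSPE1 was at 0.730, 0.793 and 0.831 of HSPD1 in shCtrl cells and at 1.21, 1.22 and 1.13 in KD cells, a log2 difference of 0.60. In each of the 3 ratios the groups did not overlap. The two-sided exact permutation test over libraries gave p = 0.1 for each, the smallest p that 3 against 3 libraries allow, and adjusted over the 3 ratios it is also 0.1, so these differences cannot pass 0.05 in this design.

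**Figure D3:**
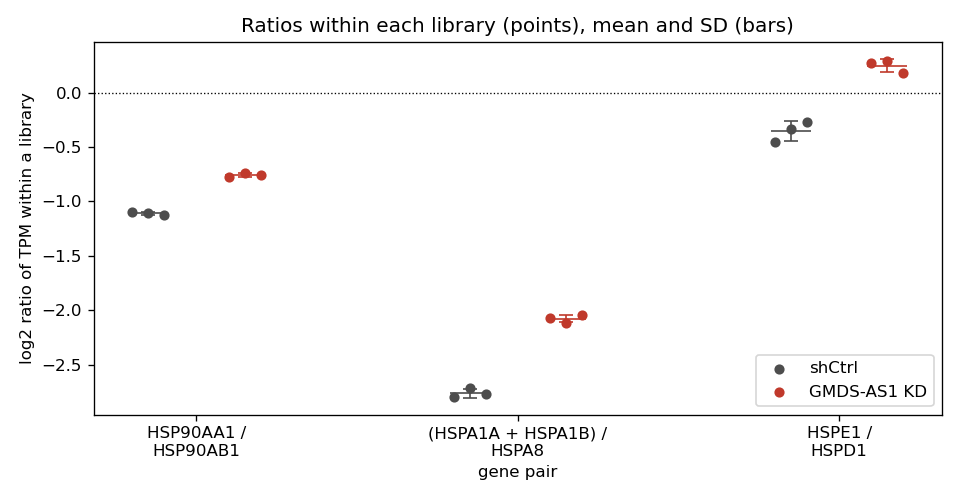
Log2 ratio of TPM within each library for 3 pairs of chaperone genes. Points are libraries and bars the mean and SD (n = 3 per group), and in each pair the 3 KD points lie above the 3 shCtrl points.

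HSF1 itself was at 59.78, 63.06 and 66.07 TPM in shCtrl cells and at 90.23, 85.63 and 86.53 TPM in KD cells, with a log2 fold change of 0.71 (SE 0.05, limma adjusted p = 3e-05), or 0.47 with TPM as deposited. HSF2, a related factor that can form trimers with HSF1, was at 17.1 ± 2.55 TPM in shCtrl cells and 15.3 ± 2.58 TPM in KD cells (SD, n = 3). It was not called (log2 fold change 0.09, SE 0.14, limma adjusted p = 0.637), and HSF4 was not called either, although it was lower without shCtrl replicate 1 (log2 fold change -0.52, limma adjusted p = 0.00352). The activity of HSF1 is set largely at the protein level, which was not measured.

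A wider list of 68 genes of the same machinery, which leaves out the 10 genes above, was counted in the same fit. This list too was written with earlier results of these data known. Of its members 61 were tested, 47 were called higher, 3 lower and 11 not, and the median log2 fold change was 0.38 against -0.002 for all genes tested, of which 28.5% were called higher and 25.9% lower. With TPM as deposited, 30 were called higher and 8 lower, with a median of 0.14, against 16.3% and 40.3% of all genes. Of the 47 genes, 30 stayed higher there, 16 were not called and CCT4 turned lower (log2 fold change 0.10, or -0.15 with TPM as deposited).

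The lists within it are read against the same shares of all genes, 28.5% higher and 25.9% lower, or 16.3% and 40.3% with TPM as deposited. Among the partners of HSP70, 4 of 4 tested HSP70 and HSP110 genes and 8 of 10 J-proteins were called higher, with DNAJB5 lower. In TPM as deposited these were 2 and 5 genes higher, and 0 and 2 lower. HSPA4L, an HSP110 protein, had the largest rise of the former, from 10.1 ± 0.970 to 16.4 ± 2.17 TPM (SD, n = 3), with a log2 change of 0.88, or 0.65 with TPM as deposited. DNAJA1, a farnesylated J-protein of the cytosol, led the latter with 82.9, 77.44 and 78.14 TPM in shCtrl cells and 143.09, 140.9 and 145.86 TPM in KD cells (log2 fold change 1.09, or 0.84 with TPM as deposited). DNAJB5 was at 8.83, 9.23 and 9.01 TPM in shCtrl cells and fell to 4.98, 4.47 and 4.72 TPM in KD cells (log2 fold change -0.60, or -0.81 with TPM as deposited). Of the 7 exchange factors and partners, 4 were higher and BAG2, BAG4 and BAG5 were not called, while with TPM as deposited BAG2 was lower. HSPBP1, a nucleotide exchange factor, rose from 31.3 ± 2.76 to 61.4 ± 1.93 TPM (SD, n = 3), with a log2 change of 1.20, or 0.96 with TPM as deposited.

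Where 28.5% of all genes were called higher, 11 of the 12 HSP90 co-chaperones were and AHSA2P was not, with a median log2 fold change of 0.60, and 8 were higher with TPM as deposited against 16.3% of all genes. CHORDC1, a co-chaperone with zinc-binding CHORD domains, had the largest change, with 53.95, 54.3 and 50.55 TPM in shCtrl cells and 106.33, 102.12 and 112.47 TPM in KD cells (log2 fold change 1.24, or 1.00 with TPM as deposited). The 8 subunits of the cytosolic chaperonin TRiC, which folds actin and tubulin, were called higher, but CCT4 kept its call in 3 of 14 alternatives and turned lower with TPM as deposited, where CCT6A was not called. CCT3 was the largest of these, from 394.1 ± 9.41 to 648.5 ± 8.43 TPM (SD, n = 3), with a log2 change of 0.96, or 0.72 with TPM as deposited. Prefoldin, which hands actin and tubulin to TRiC, had 3 of 6 subunits higher, but 1 higher and 2 lower with TPM as deposited, where 16.3% of all genes were higher and 40.3% lower, so the latter counts are near or under the background. PFDN2 led them with a log2 fold change of 0.52, or 0.27 with TPM as deposited.

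In mitochondria, 8 of 9 chaperones and proteases were called higher, against 28.5% of all genes, and 3 of them also with TPM as deposited, against 16.3%. HSPA9, the mitochondrial HSP70, was lower, from 335.6 ± 5.42 to 259.6 ± 6.64 TPM (SD, n = 3), with a log2 change of -0.12 (SE 0.03, limma adjusted p = 0.00644). From TPM as deposited it was -0.37 (adjusted p = 5.44e-05). The call was lost without the filter (adjusted p = 0.0597) and without the variance trend (adjusted p = 0.0646). Of the other 8 small heat shock proteins, 6 were not tested, CRYAB among them at a mean of 0.240 TPM in shCtrl and 0.227 TPM in KD cells. HSPB8, the partner of BAG3, was at 4.48 ± 1.15 and 5.24 ± 0.576 TPM (SD, n = 3) and was not called (limma adjusted p = 0.0675), but it was without shCtrl replicate 1 (log2 fold change 0.54, limma adjusted p = 0.018). HSPB11, better known as a subunit of the intraflagellar transport particle in cilia, fell from 48.5 ± 2.72 to 25.9 ± 3.64 TPM (SD, n = 3), with a log2 change of -0.64, or -0.88 with TPM as deposited.

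The chaperones of the endoplasmic reticulum are controlled by the unfolded protein response and not mainly by HSF1. Of the 17 genes listed for them, 2 were called higher, 11 lower and 4 not, with a median log2 fold change of -0.22 against 0.99 for the 9 tested chaperones of the group above. Of all genes, 28.5% were called higher and 25.9% lower. With TPM as deposited, 1 was higher and 16 were lower, against 16.3% and 40.3% of all genes. HSPA5, the HSP70 of this compartment, was at 485.71, 485.7 and 461.16 TPM in shCtrl cells and at 280.78, 275.48 and 283.15 TPM in KD cells (log2 fold change -0.52, or -0.77 with TPM as deposited). HSPA13 fell most, with a log2 fold change of -1.56 (-1.78 with TPM as deposited), and SDF2L1 rose most, with 0.56 (0.31 with TPM as deposited). P4HB was called higher, but lower with TPM as deposited (log2 fold change 0.11 and -0.14). Whether these lists differ from the 10 genes was not tested as lists, and the values are a description.

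**Figure D4:**
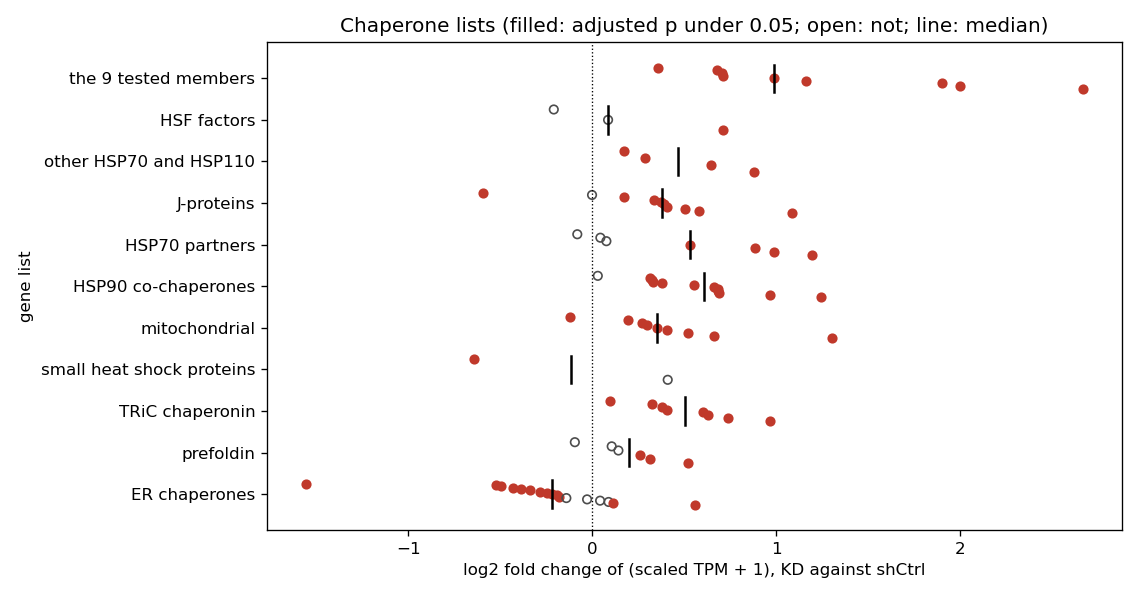
Log2 fold change of (scaled TPM + 1), KD against shCtrl, of each tested gene in the group and in 10 other chaperone lists. Filled points were called at an adjusted p under 0.05, open points were not, and black lines are medians, which run from 0.99 for the 9 tested genes of the group to -0.22 for the chaperones of the endoplasmic reticulum.

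The genes whose profile lay closest to that of HSPA1B were sought among 7899 other genes with a mean of at least 10 TPM over the 6 libraries. Likeness was the root mean square difference of log2(scaled TPM + 1), each gene taken relative to its own shCtrl mean. The closest were DYNLRB1, a light chain of dynein, at 0.12, HYAL1, a hyaluronidase, at 0.14, ETV1, an ETS transcription factor, at 0.32, RAB3A, a GTPase of vesicle release, at 0.33 and PLCD3, a phospholipase C, at 0.33. DYNLRB1 rose from 35.7 ± 2.09 to 176.2 ± 1.48 TPM (SD, n = 3), with a log2 change of 2.51, or 2.27 with TPM as deposited. HYAL1, ETV1 and RAB3A were at 4.19, 3.64 and 3.77 TPM in shCtrl cells and at 24.8, 17.8 and 18.1 TPM in KD cells. These genes thus reached the mean of 10 TPM only through the KD libraries. With 3 against 3 libraries the measure mostly follows the size of the group difference, so the likeness is a description. None of these 5 genes belongs to the chaperone lists.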

How the data were processed

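RNA of 3 shCtrl and 3 GMDS-AS1 shRNA2 libraries of HCT116 cells was sequenced in pairs of 150-base reads. The authors deposited TPM per Ensembl gene, 1 table per library, and per the labels the libraries are biological replicates. The submitters' processing notes name Trimmomatic 0.27, TopHat2 2.1.1 and GRCh38.p13, and expression was estimated with Cufflinks and RSEM according to the methods. Read totals cannot be had from TPM, so count tests could not be used and no counting error was computed. The 2 lines without a value were left out.

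A gene was kept if it reached 0.5 TPM in 3 or more libraries. Libraries were divided by trimmed mean of M-values factors computed on TPM, and log2(TPM + 1) was fitted (limma 3.58.1, R 4.3.3) using a variance trend, no replicate block and Benjamini-Hochberg adjustment. Tested on simulated data with 16901 genes, the fit called 180 of 200 genes raised or lowered by 1.5 on the log2 scale and 17 unchanged genes. The simulation changed only these 200 genes, up and down in equal number, where 54.3% of genes were called in the data. It therefore cannot show how the scaling and the false calls behave when most genes change. Smaller changes than 1.5 were not simulated. Ratios were compared with exact permutation tests in scipy 1.17.1. Positions came from GENCODE v29 (GRCh38) and promoter windows from RefSeq (GRCh38.p14). Alternatives covered the scaling, pseudocount, filter, variance trend, replicate block and each left-out library. For the tested members, the sum of HSPA1A and HSPA1B, and GMDS-AS1 they were planned. For the other named genes that were tested they were added after the data were seen.

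The members and lists were chosen with earlier results of these data known. Named genes are the 10 members, HSF1, HSF2, HSPE1, GMDS-AS1, the called gene with the largest change in each direction of each list (mean of at least 5 TPM), and the 5 genes most like the member that changed most. HSF4, HSPA1L, HSPA5, HSPA6, HSPB8, CRYAB, CCT4, CCT6A, P4HB, AHSA2P, BAG2, BAG4 and BAG5 were named after their values were seen.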

Additional observations from a re-analysis of the deposited data

How the results depend on the processing

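The 9 tested chaperone genes kept their direction and their call under all 14 alternatives, with 9 genes higher and 0 lower in each. Of all genes tested, 13.7% (without the filter) to 32.2% (at least 1 TPM in every library) were called higher. The share called lower ran from 11.4% (without the filter) to 40.3% (TPM as deposited). The sum of HSPA1A and HSPA1B also kept its call, but it follows HSPA1B, since HSPA1A was at or near 0 TPM. HSPA1B ranged from 2.42 to 2.70 and HSP90AB1 from 0.11 to 0.39 on the log2 scale. The median log2 fold change of the 9 genes was 0.99, and it was 0.75 with TPM as deposited, 0.90 with upper-quartile scaling, 1.01 with a pseudocount of 0.1, 1.02 without the filter, 0.94 with at least 1 TPM in every library, and 0.96 to 1.01 when each library was left out. With TPM as deposited, 30 genes of the wider list were called higher in place of 47 and 8 lower in place of 3. The chaperones of the endoplasmic reticulum called higher went from 2 to 1 with TPM as deposited, with upper-quartile scaling, with at least 1 TPM in every library and without the variance trend. Among all genes, 4810 were called higher and 4372 lower, against 2756 and 6814 with TPM as deposited. The fit with TPM as deposited differed from the main fit only in the scaling between libraries. Why the scaling factors differed between the groups was not tested. The log2 fold change of GMDS-AS1 was -0.68 with a pseudocount of 0.1 (adjusted p = 0.0418) and -0.55 with TPM as deposited (adjusted p = 0.0147), both called, but -0.39 without the filter (adjusted p = 0.149), and leaving out each library gave -0.52 to -0.30. HSF2, not called, reversed to -0.15 with TPM as deposited, and leaving out each library gave -0.055 to 0.17 (reversed without shCtrl replicate 1 and, at -0.027, without GMDS-AS1 shRNA2 replicate 3). CCT4 and P4HB reversed to -0.15 and -0.14 with TPM as deposited. Of the genes not called, AHSA2P, BAG4 and BAG5 reversed to -0.20, -0.19 and -0.15 with TPM as deposited and to -0.055, -0.040 and -0.007 with upper-quartile scaling, and AHSA2P and BAG4 to -0.018 and -0.0041 with at least 1 TPM in every library. Leaving out each library gave -0.054 to 0.095 for AHSA2P and -0.019 to 0.080 for BAG4. HSF4 was called lower only without shCtrl replicate 1 (log2 fold change -0.52, limma adjusted p = 0.00352).

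Deviations from the group means were hardly correlated between same-numbered libraries of the groups, at 0.029, -0.0376 and 0.0142 over genes, and not every library correlated best with its own number. With the replicate block the number of genes called went from 9182 to 8631. GMDS-AS1 (log2 fold change -0.41) was then not called (limma adjusted p = 0.0518), nor was CCT4, and the 9 chaperone genes stayed called. The ratios kept their sign under every alternative, where leaving out 1 library allows no p under 0.2, and with pairs no p under 0.25.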
